A study of Rattus norvegicus with 25 samples.

Results

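The dopamine receptor genes Drd1, Drd2 and Drd3 and 4 genes through which striatal neurons answer dopamine and adenosine, Adora2a, Gnal, Adcy5 and Ppp1r1b, were followed across the striatum of adolescent rats from 3 gestational conditions. The genes were listed by name, and no measured value enters the rule, but the list was chosen with earlier results of these data known. Each was read by the probe sets whose annotation gives its symbol alone, which was 1 probe set per gene, so that 7 of the 29214 probe sets in the table belong to these genes. Of the 7, 6 were among the 14607 probe sets kept for testing, those whose mean over the 25 arrays reached the middle of the ranked probe-set means. Drd3 lay below that point, at a mean of 6.85 against 6.97, and its tests come from a fit without the filter.

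Striatal RNA came from male offspring of the Lister hooded strain, killed between PND 35 and 42, and was hybridised to Affymetrix rat gene 1.0st arrays, 1 array for each animal. Con (n = 8) were offspring of dams with unrestricted food and tap water, Nic (n = 7) were offspring of dams that drank water with nicotine bitartrate from before mating and through pregnancy, with short access to tap water on days of low intake, and Con-Pf (n = 10) were offspring of nicotine-free dams given only as much food as the nicotine dams ate. All 3 groups were of the same strain and sex. Levels are given as log2 values of the Robust Multichip Algorithm (RMA), and a difference of 1 on this scale is a doubling. The litter of each animal is not stated. The methods give fewer pair-fed dams than the 10 Con-Pf arrays, so by the sample titles some Con-Pf animals shared a dam. In the other groups littermates are possible. The tests treat animals as independent, and p-values measure the spread between these animals.

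In the striatum, dopamine from midbrain axons acts on medium spiny neurons, the projection neurons that make up most of the tissue. Neurons of the direct pathway carry the D1 receptor (Drd1), which raises cyclic AMP, and neurons of the indirect pathway carry the D2 receptor (Drd2), which lowers it, together with the adenosine receptor Adora2a, which raises it. The D3 receptor (Drd3) resembles D2 and is found mainly in the ventral striatum. The D1 and the adenosine receptor couple to the G protein subunit Golf (Gnal), Golf activates adenylyl cyclase 5 (Adcy5), and protein kinase A then phosphorylates DARPP-32 (Ppp1r1b), which in that form inhibits protein phosphatase 1. In a tissue sample, fewer cells of a type and less RNA in each cell cannot be told apart.

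The tissue label was checked against markers of medium spiny neurons other than the 7 genes. All 15 markers with a probe set of 1 symbol (the shared markers Rgs9, Foxp1, Gad1, Gad2, Meis2, Pde10a and Pde1b, the direct pathway markers Tac1, Pdyn, Chrm4, Isl1, Slc35d3 and Ebf1, and the indirect pathway markers Penk and Gpr6) were kept by the filter, and none passed the limma test in any comparison. In Con-Pf against Con, Con-Pf against Nic and Nic against Con, 1.26%, 0.185% and 0% of all probe sets kept passed. Under an unadjusted limma p of 0.05 were Pde10a (-0.14) and Tac1 (0.08) in the first comparison. Gpr6 (-0.15) was so in the second, and Slc35d3 (0.13) and Gpr6 (0.12) in the third. The mean of the 7 shared markers lay between 12.21 and 12.38 on every array. Markers of neighbouring tissue varied more: the mean of 6 markers of cortical and thalamic neurons ran from 6.46 to 7.53 in Con, from 6.38 to 7.89 in Nic and from 6.34 to 6.86 in Con-Pf, and 4 of these 6 lay below the filter. The mean of 8 choroid plexus markers reached 9.73 on Con 2 and 10.3 on Con-Pf 4 and stayed at or below 7.65 on every other array. Over the probe sets kept, arrays correlated at r = 0.967 to 0.997, and the first principal component, with 30.4% of the variance, set Con 5 (a score of -33.9) and Con 3 (-25.2) apart from the next array (-11.6).

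Sequence before the annotated start was found in RefSeq (rat assembly GRCr8) for 5 of the 7 genes, Drd1, Drd2, Drd3, Adcy5 and Gnal. It is shown for Drd2 and Gnal, whose levels varied together across animals, and for Adcy5, whose groups lay farthest apart in proportion to their spread. Each stretch holds the 250 bases before the start, 5′ to 3′ on the strand of the gene, at chr8:58605153-58605402 (+ strand) for Drd2, chr18:62892007-62892256 (+ strand) for Gnal and chr11:79123344-79123593 (- strand) for Adcy5. Capitals mark each match to the GC box GGGCGG, read on both strands:
Drd2: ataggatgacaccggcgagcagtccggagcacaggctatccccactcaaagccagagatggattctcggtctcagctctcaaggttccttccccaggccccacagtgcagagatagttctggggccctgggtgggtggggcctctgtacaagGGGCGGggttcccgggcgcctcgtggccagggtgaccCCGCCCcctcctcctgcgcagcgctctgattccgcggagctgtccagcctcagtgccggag
Gnal: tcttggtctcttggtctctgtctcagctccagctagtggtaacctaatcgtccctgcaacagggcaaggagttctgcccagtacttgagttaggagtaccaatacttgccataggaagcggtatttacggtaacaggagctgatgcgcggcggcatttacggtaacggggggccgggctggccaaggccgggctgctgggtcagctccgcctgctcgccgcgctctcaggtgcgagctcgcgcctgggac
Adcy5: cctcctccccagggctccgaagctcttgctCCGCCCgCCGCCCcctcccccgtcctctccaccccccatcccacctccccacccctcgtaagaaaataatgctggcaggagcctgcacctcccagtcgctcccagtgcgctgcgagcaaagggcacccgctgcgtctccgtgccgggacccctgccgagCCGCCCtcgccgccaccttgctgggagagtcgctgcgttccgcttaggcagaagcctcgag
Drd2 held 2 GC boxes, their first bases 98 and 61 bases before the start, and Adcy5 held 3, at 220, 213 and 61 bases. Gnal held none, and a GC box was found in 30.5% of all 33469 stretches of this length. The cyclic AMP response element half-site TGACG, the TATA box TATAAA and the EGR site GCGTGGGCG, which shares 5 letters with the GC box, were in none of the 3 stretches on either strand; they were in 18.2%, 12.9% and 0.478% of all stretches. GC content was 66% for Drd2, 60.4% for Gnal and 70% for Adcy5, against a median of 51.2%. These matches describe the letters of the reference and say nothing of binding in these animals.

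None of the 6 genes kept passed the limma test in any of the 3 comparisons. The comparison of Con-Pf with Con asks about limited food in gestation. There 0 of 6 were called at an adjusted p under 0.05, where 1.26% of all probe sets kept were called, and 1 of 6, Adcy5, had an unadjusted p under 0.05, where 22.0% of all probe sets did. Nicotine dams also drank less than pair-fed dams, and the authors name higher stress in pair-fed animals as possible. The comparison of Con-Pf with Nic asks about nicotine at food intake meant to be equal, without isolating it. There 0 of 6 were called (0.185% of all probe sets) and 0 of 6 had an unadjusted p under 0.05 (4.36% of all). In Nic against Con, 0 of 6 were called (0% of all, with a smallest adjusted p of 0.268 over the whole table) and 0 of 6 had an unadjusted p under 0.05 (16.2% of all). Run on the same values with unequal variances, the methods' t-test put 1, 1 and 0 of the 6 under an unadjusted 0.05, Adcy5 in the first comparison and Gnal in the second, and it too called none after adjustment. The 3 comparisons share their groups, so that each group enters 2 of them.

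**Figure D1:**
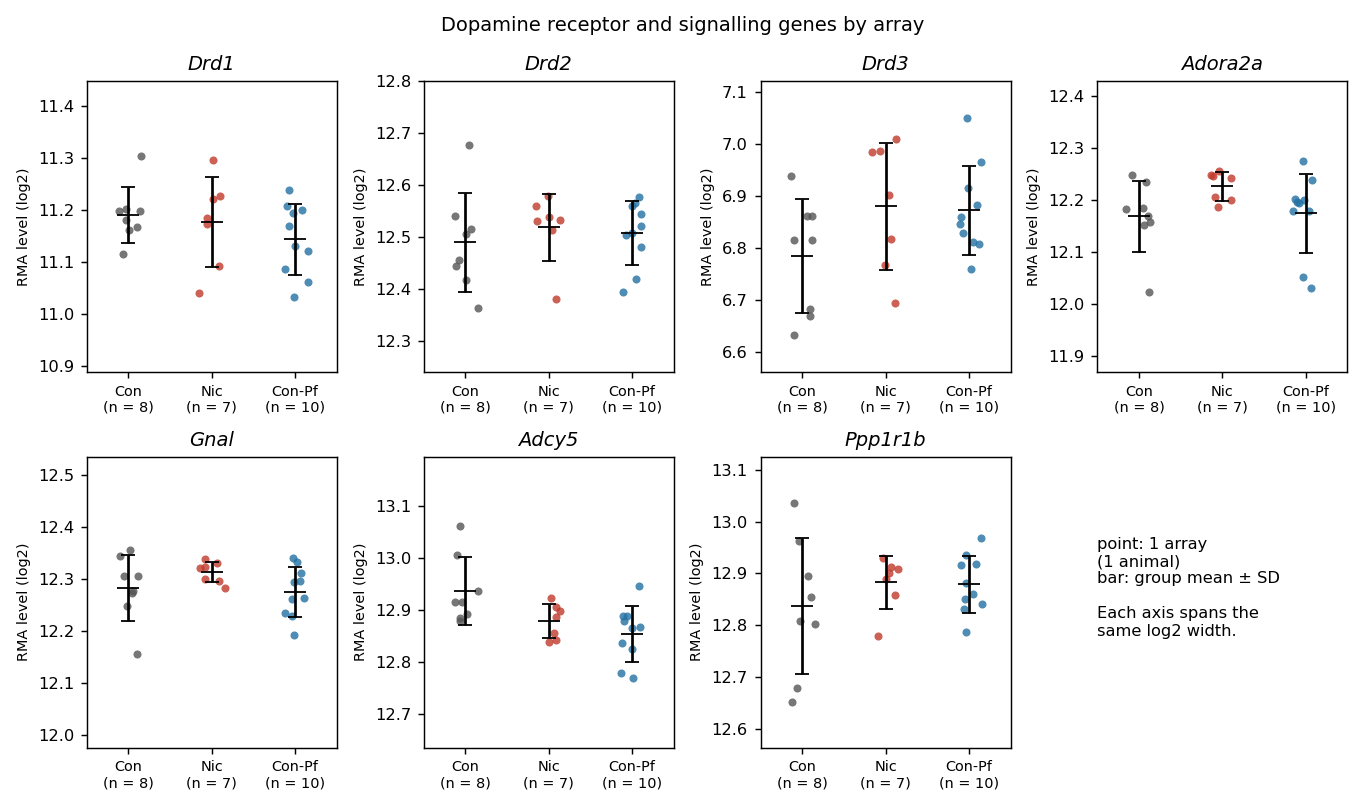
RMA level (log2) of each of the 7 genes on each of the 25 arrays, with the mean and SD of Con (n = 8), Nic (n = 7) and Con-Pf (n = 10); every axis spans the same log2 width. With groups taken from the sample titles, the groups overlap for every gene, and Adcy5 is the one whose Con-Pf arrays lie mostly under the Con arrays.

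Of the receptors, Drd1 was at 11.12 to 11.30 (median 11.19) in Con, 11.04 to 11.30 (median 11.19) in Nic and 11.03 to 11.24 (median 11.15) in Con-Pf. The order of the means was Con, then Nic, then Con-Pf, and no neighbouring pair differed beyond its spread. Con-Pf differed from Con by -0.05 (SE 0.04, limma adjusted p = 0.45), from Nic by -0.03 (SE 0.04, adjusted p = 0.999), and Nic differed from Con by -0.01 (SE 0.04, adjusted p = 0.868). The highest Con value was that of Con 2, 1 of the 2 arrays with high choroid plexus markers. Its part in the Drd1 values was not tested beyond leaving that array out, which moved Nic against Con from -0.01 to 0.00.

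Drd2 was at 12.36 to 12.68 (median 12.48) in Con, 12.38 to 12.58 (median 12.53) in Nic and 12.39 to 12.58 (median 12.51) in Con-Pf. The Con arrays spanned both the lowest and the highest value of the 25, and both other groups lay within them. Nic differed from Con by 0.03 (SE 0.04, limma adjusted p = 0.72), Con-Pf from Con by 0.02 (SE 0.04, adjusted p = 0.812) and Con-Pf from Nic by -0.01 (SE 0.04, adjusted p = 0.999). The order of the means was Nic, Con-Pf, Con, with no step larger than the SD of a group.

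Adora2a was at 12.02 to 12.25 (median 12.18) in Con, 12.19 to 12.26 (median 12.24) in Nic and 12.03 to 12.28 (median 12.20) in Con-Pf. Its Nic arrays were the tightest, with an SD of 0.03 (n = 7) against 0.07 in Con (n = 8) and 0.08 in Con-Pf (n = 10). The low ends of the other groups were single animals, Con 5 at 12.02, Con-Pf 1 at 12.03 and Con-Pf 9 at 12.05, and the remaining 22 arrays lay at 12.15 or above. Nic was 0.06 above Con (SE 0.04, limma adjusted p = 0.421; exact permutation p = 0.0371 over arrays, two-sided and not adjusted, 1 of 21 such tests), and 2 of the 7 Nic arrays were above every Con array. Without Con 5 the difference was 0.04 (SE 0.04), and after a further quantile normalization it was 0.02 (SE 0.04). Con-Pf differed from Nic by -0.05 (SE 0.04, adjusted p = 0.999) and from Con by 0.01 (SE 0.04, adjusted p = 0.936). Differences in spread between groups were not tested.

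Drd3 was at 6.63 to 6.94 (median 6.81) in Con, 6.69 to 7.01 (median 6.90) in Nic and 6.76 to 7.05 (median 6.85) in Con-Pf. In the fit without the filter Con-Pf was 0.09 above Con (SE 0.05, limma adjusted p = 0.479) and Nic was 0.10 above Con (SE 0.06, adjusted p = 0.545). Con-Pf and Nic differed by -0.01 (SE 0.05, adjusted p = 1.00). The groups overlapped, with 2 of 10 Con-Pf arrays and 3 of 7 Nic arrays above the highest Con array.

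Gnal, the subunit that couples the D1 receptor and Adora2a to cyclase, was at 12.16 to 12.36 (median 12.29) in Con, 12.28 to 12.34 (median 12.32) in Nic and 12.19 to 12.34 (median 12.28) in Con-Pf. It was the steadiest of the 7 genes. Con-Pf differed from Nic by -0.04 (SE 0.03, limma adjusted p = 0.999), with 5 of 10 Con-Pf arrays below and 1 above all Nic arrays, and this was the difference that the methods' t-test put at an unadjusted p of 0.044 (exact permutation p = 0.0689). Nic differed from Con by 0.03 (SE 0.03, adjusted p = 0.617) and Con-Pf from Con by -0.01 (SE 0.03, adjusted p = 0.9).

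Adcy5, the main striatal cyclase, showed the largest difference of the genes kept. It was at 12.88 to 13.06 (median 12.92) in Con, 12.84 to 12.92 (median 12.89) in Nic and 12.77 to 12.95 (median 12.87) in Con-Pf. The order of the means was Con, Nic, Con-Pf, and 6 of 10 Con-Pf arrays and 3 of 7 Nic arrays lay below the lowest Con array. These counts follow the sample titles. The lowest of the 25 values, 12.77, was that of Con-Pf 9, which has a Con-Pf title and a description as control. Counted as Con, it would be the lowest Con array, and no Con-Pf or Nic array would lie below it. Con-Pf was below Con by -0.08 (SE 0.03, 95% interval -0.15 to -0.02, a change of -5.55%), with an unadjusted limma p of 0.0151, an exact permutation p of 0.00683 and an adjusted p of 0.151, so it was not called. Nic was below Con by -0.06 (SE 0.03, adjusted p = 0.381; exact permutation p = 0.046), and Con-Pf differed from Nic by -0.02 (SE 0.03, adjusted p = 0.999). The 2 highest of the 25 values were Con 5 at 13.06 and Con 3 at 13.01, the arrays that stood apart on the first principal component. Without them Con-Pf differed from Con by -0.05 (SE 0.03, unadjusted p = 0.101) and Nic from Con by -0.03 (SE 0.03, unadjusted p = 0.434).

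Ppp1r1b, the gene of DARPP-32, was at 12.65 to 13.04 (median 12.83) in Con, 12.78 to 12.93 (median 12.90) in Nic and 12.79 to 12.97 (median 12.87) in Con-Pf. The same 2 arrays were here the lowest of the 25, Con 5 at 12.65 and Con 3 at 12.68, and the Con SD of 0.13 (n = 8) was wider than the 0.05 of Nic (n = 7) and the 0.06 of Con-Pf (n = 10). Nic differed from Con by 0.05 (SE 0.05, limma adjusted p = 0.598), Con-Pf from Con by 0.04 (SE 0.04, adjusted p = 0.563) and Con-Pf from Nic by 0.00 (SE 0.04, adjusted p = 0.999). Without Con 3 and Con 5 the difference of Con-Pf from Con was -0.01 (SE 0.04) and that of Nic from Con was -0.01 (SE 0.04).

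**Figure D2:**
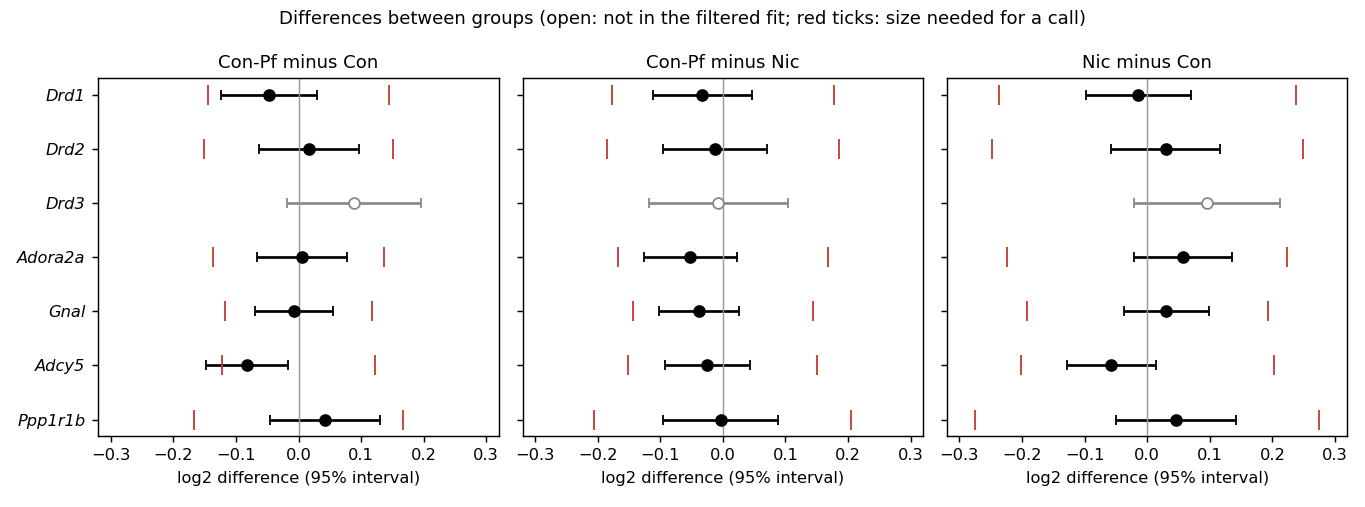
Difference of group means (log2) for each gene in the 3 comparisons, with its 95% interval from limma; red ticks mark the size a gene would have needed for an adjusted p under 0.05, and the open point of Drd3 comes from the fit without the filter. All points lie within 0.10 of 0, and the interval of Adcy5 in Con-Pf minus Con is the only one without 0.

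The intervals show which differences the spread between these animals leaves possible. For the 6 genes kept, the 95% intervals of the change ran from -9.71% to 9.49% in Con-Pf against Con, from -8.41% to 6.31% in Con-Pf against Nic and from -8.53% to 10.4% in Nic against Con. A gene of this spread would have needed a log2 difference of 0.12 to 0.17, 0.14 to 0.21 and 0.19 to 0.27 to be called in these comparisons. The median of the 6 differences was 0.00, -0.03 and 0.03, beside 0.02, -0.01 and 0.02 for all probe sets kept. The sign of 10 of these 18 differences turned under at least 1 other setting, in each case with a size of at most 0.03, and the sign of the Adcy5 differences did not turn under any.

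The genes varied little between animals of a group. The residual SD was 0.05 for Gnal, 0.05 for Adcy5, 0.06 for Adora2a, 0.07 for Drd1, 0.07 for Drd2 and 0.09 for Ppp1r1b, against a median of 0.12 over the probe sets kept. Only 0.863% of probe sets kept had a smaller SD than Gnal and 1.62% a smaller one than Adcy5; for Ppp1r1b it was 17.9% and for Drd3, with an SD of 0.10, it was 34.2%. The comparison was not matched for level.

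Across animals, 4 of the genes varied together. Correlations were computed on deviations from the group means over 25 arrays, for 21 pairs, with 100000 permutations of arrays within groups, and the 4 genes are named here after their values were seen. The 6 pairs among Drd2, Adora2a, Gnal and Ppp1r1b passed after adjustment over the 21 pairs, with r = 0.64 to 0.74, rho = 0.52 to 0.76 and adjusted permutation p of at most 0.0122 for r and 0.0384 for rho. The other 15 pairs, all of those with Drd1, Drd3 or Adcy5, had r = -0.31 to 0.42 and none passed. Drd2 and Adora2a, both of the indirect pathway, had r = 0.74 (rho = 0.76, adjusted permutation p = 0.000525), and Drd1 and Drd2, the receptors of the 2 pathways, had r = 0.04 (rho = 0.05, adjusted permutation p = 0.901). Drd2 also had r = 0.74 with Ppp1r1b and 0.69 with Gnal, and whether the correlations follow the pathways was not tested. For Ppp1r1b and Adora2a (r = 0.74, rho = 0.76) the unadjusted p of 1e-05 was the smallest that 100000 permutations can give.

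**Figure D3:**
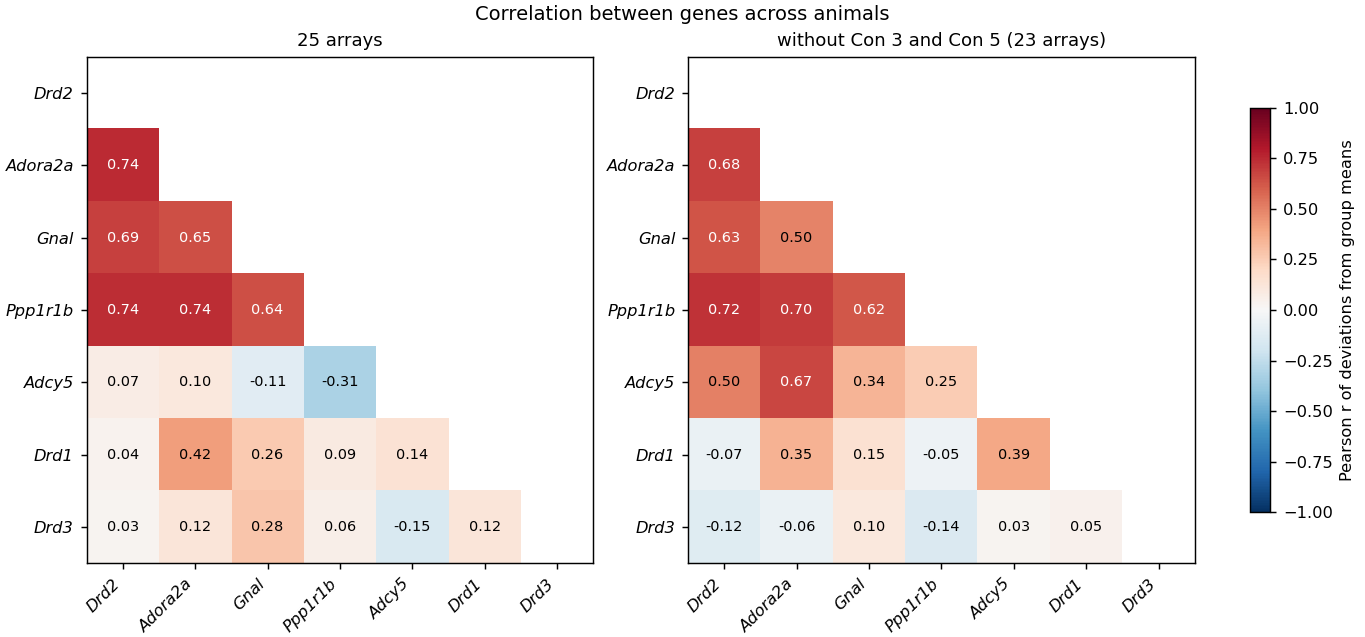
Pearson r between the 7 genes over deviations from group means, for all 25 arrays (left) and without Con 3 and Con 5 (right); red is positive and blue negative. The block of Drd2, Adora2a, Gnal and Ppp1r1b has r of 0.64 to 0.74 on the left and 0.50 to 0.72 on the right, where Adcy5 and Adora2a reach 0.67.

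How far these correlations rest on single animals differed by pair. Con 5 was the lowest Con array for 6 of the 7 genes and the highest for Adcy5. Without it 4 pairs passed, and those of Gnal with Adora2a and with Ppp1r1b did not. Without the 3 arrays of low Adora2a (Con 5, Con-Pf 1 and Con-Pf 9), a choice made after seeing the data, 3 pairs passed, with r of 0.53 for Drd2 and Gnal, 0.58 for Drd2 and Adora2a and 0.74 for Ppp1r1b and Adora2a. The other pairs then had r = 0.64 for Drd2 and Ppp1r1b, 0.43 for Ppp1r1b and Gnal and 0.33 for Gnal and Adora2a. Without Con 3 and Con 5, 7 pairs passed: 5 of the 6 remained (Gnal and Adora2a, at r = 0.50, did not) and 2 with Adcy5 were added, those with Drd2 (r = 0.50) and Adora2a (r = 0.67). Within groups the 6 pairs had r = 0.73 to 0.96 in Con (n = 8), 0.20 to 0.93 in Nic (n = 7) and 0.39 to 0.84 in Con-Pf (n = 10). After a further quantile normalization 5 of the 6 pairs passed, Ppp1r1b and Gnal fell to r = 0.17, and Adcy5 with Adora2a was added. Leaving out the 2 arrays farthest from the median of the first gene of each pair gave r = 0.40 to 0.83.

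**Figure D4:**
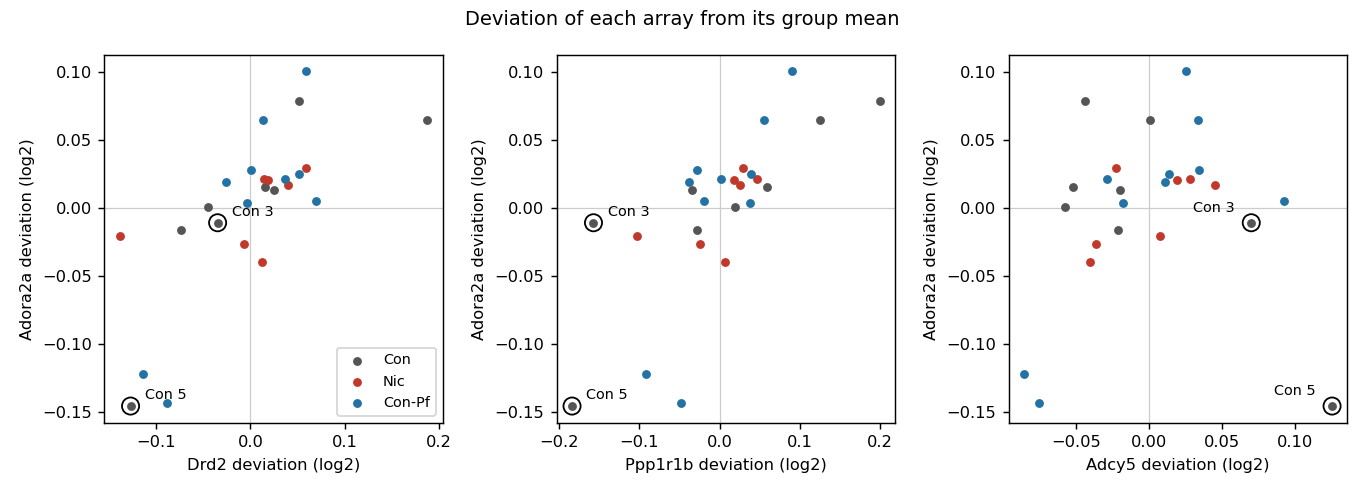
Deviation of Adora2a from its group mean (log2) against that of Drd2, Ppp1r1b and Adcy5, 1 point for each of 25 arrays, coloured by group, with Con 3 and Con 5 circled. Con 5 is low for Adora2a, Drd2 and Ppp1r1b and high for Adcy5, where it lies away from the other arrays (r = 0.10 with it, 0.67 without Con 3 and Con 5).

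High correlations were common on these arrays, and the pairs are to be read beside that. Among all other probe sets kept, 3.68% had r above 0.6 with Drd2, 1.78% with Adora2a, 2.32% with Gnal, 12.4% with Ppp1r1b and 7.58% with Adcy5, against 0.26% with Drd1 and 0.342% with Drd3. The r of Drd2 with Adora2a was above that of 99.9% of probe sets with Adora2a and 99.5% of those with Drd2. Ppp1r1b with Gnal was above 90.3% of probe sets with Ppp1r1b.

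The 7 genes were also set beside 6 measures of each array, 42 relations in all, of which 3 passed for r. Ppp1r1b followed the first principal component (r = 0.77, adjusted permutation p = 0.013) and Adcy5 ran against it (r = -0.72, adjusted permutation p = 0.00567), but for rho the adjusted p was 0.0809 for both (rho = 0.61 and -0.58). Without Con 3 and Con 5, the 2 farthest arrays, and with group means taken anew, these r were 0.49 and -0.42. Adcy5 followed the mean of the 7 shared markers of medium spiny neurons (r = 0.76, rho = 0.79, adjusted permutation p = 0.00294 and 0.00126; r = 0.74 without the 2 farthest arrays). One of these markers, Pde10a, is itself among the genes nearest to Adcy5 given below (r = 0.86), and a mean without it was not computed. In Con, the SD was 0.18 for Pde10a and for Gad2, against 0.03 to 0.07 for the rest of the 7 markers. For the other 6 genes with the mean of the 7 shared markers, r was -0.20 to 0.37 and did not pass. Without Con 3 and Con 5 it was 0.73 for Drd2, 0.49 for Adora2a, 0.46 for Gnal and 0.28 for Ppp1r1b, beside 0.72 for Adcy5. For Drd1 and Drd3 it was then 0.15 and -0.02, and the r without these arrays were not tested. None of the 7 genes passed with the means of cortical and thalamic, choroid plexus, oligodendrocyte or astrocyte markers (smallest adjusted p 0.147).

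The genes closest to each of the 7 were taken as the 5 named genes kept with the highest r over the 25 arrays. They are given as a description, since the highest of 14607 values are high by choice. For Drd1 they were Nap1l3 (r = 0.76), Etfa, Tm9sf2, Rab21 and C1galt1 (0.67). For Drd2 they were Coro7 (0.88), Asic4, Nmnat2, Nrgn and Gga1 (0.84), and for Drd3 Efnb1 (0.76), Kpna2, Tmpo, Pclaf and Top2a (0.68). Adora2a had Ing2 (0.76), Exosc5, Acbd4, Usp2 and C8h11orf87 (0.75), and Gnal had Dck (0.82), Tbl1xr1, Smarcd3, Lrrtm4 and Ube2z (0.76). Adcy5 had Kcng3 (0.87), Itpr1, the calcium release channel of the endoplasmic reticulum, Atp2b1, a calcium pump, Pde10a, the striatal phosphodiesterase, and Lmtk2 (0.85). Ppp1r1b had Wipf3 (0.91), Thy1, Ercc1, B3gat3 and Cpsf7 (0.87). None of the 35 was one of the 7 genes, and no gene was close to more than 1 of them.

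Around the 7 genes, 76 further genes of dopamine, adenosine and cyclic AMP signalling were counted in 7 lists. Of these, 4 were not analysed here, 5 (Drd4, Th, Slc6a3, Slc18a2 and Ada) lay below the filter and 67 were tested. In Con-Pf against Con, limma called 1 of 67 (1.49%, against 1.26% of all probe sets), and this gene, Nt5e, fell. Under an unadjusted 0.05 were 14, or 20.9% against 22.0% of all, 4 of them higher and 10 lower in Con-Pf, where over all probe sets 2081 were higher and 1134 lower. The share called and the share under an unadjusted 0.05 lay near those of all probe sets. The split by direction leaned the other way from that of all probe sets and was not tested. In Con-Pf against Nic limma called 0 of 67 with 1 under an unadjusted 0.05 (1.49% against 4.36% of all), and in Nic against Con 0 of 67 with 5 (7.46% against 16.2% of all). Here the methods' t-test called none of the 67 in any comparison. The medians of the 67 differences were -0.02, -0.02 and 0.00, beside 0.02, -0.01 and 0.02 for all probe sets kept.

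Nt5e, the enzyme on the cell surface that makes adenosine from AMP, was at 8.04 to 8.34 (median 8.24) in Con, 8.00 to 8.26 (median 8.13) in Nic and 7.84 to 8.31 (median 8.00) in Con-Pf. Of the 10 Con-Pf arrays, 7 lay below the lowest Con array, and Con-Pf 8 was the highest of the other 3 at 8.31. Con-Pf was lower than Con by -0.21 (SE 0.05, limma adjusted p = 0.0484). The call stood near the threshold: it was lost under 10 of 13 other settings and on leaving out 18 of 25 arrays in turn, with adjusted p of 0.00506 to 0.404 and a difference of -0.24 to -0.14 throughout. The adjusted p was 0.16 by the methods' t-test, 0.214 without Con 3 and Con 5 and 0.00506 without Con-Pf 8. Nt5e lay between the other groups in Nic, at -0.10 from Con (SE 0.06, adjusted p = 0.37), and Con-Pf differed from Nic by -0.11 (SE 0.05, adjusted p = 0.999). The adenosine kinase and transporter genes of the same list (Adk, Slc29a1 and Slc29a2) and the receptors Adora1 and Adora2b were not called.

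No gene of the other 6 lists was called, and the genes given here are the 2 of each list with the smallest p in any comparison. Most of their differences leaned on Con 3 and Con 5. In a setting added after seeing the data, without these arrays, 10 of the 11 differences between Con-Pf and Con were smaller, 7 of them by over 1.5 times. All 11 kept their sign, and 2, those of Adcy1 and Ppp1r9b, had an unadjusted p under 0.05 in place of 8. Drd5, the second receptor of the D1 family, differed between Con-Pf and Con by -0.20 (SE 0.09, limma adjusted p = 0.197), and by -0.11 without the 2 arrays. Maoa, which breaks down dopamine, differed by -0.15 (SE 0.05, adjusted p = 0.11; -0.07 without the 2 arrays), and its relative Maob by 0.02 (SE 0.05, adjusted p = 0.864). Among G protein subunits and regulators, Gnb2 differed by 0.12 (SE 0.06, adjusted p = 0.25), by 0.07 without Con 5 and by 0.02 without both. Rgs7bp, the membrane anchor of striatal RGS proteins, differed by -0.08 (SE 0.04, adjusted p = 0.248) and by -0.07 without both. Nic lay on the same side of Con, by -0.15 for Drd5, -0.14 for Maoa, 0.05 for Maob, 0.12 for Gnb2 and -0.07 for Rgs7bp. Without Con 3 and Con 5 these were -0.06, -0.06, 0.05, 0.02 and -0.06. With all arrays Con-Pf differed from Nic by -0.05, -0.01, -0.03, -0.003 and -0.003 in the same genes.

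Of the cyclases beside Adcy5, Adcy1 differed between Con-Pf and Con by -0.19 (SE 0.06, limma adjusted p = 0.1) and Adcy3 by -0.15 (SE 0.06, adjusted p = 0.155), and without Con 3 and Con 5 by -0.11 and -0.09. In that list of cyclases and protein kinase A subunits, 10 of 12 genes had the lower mean in Con-Pf than in Con, and 12 of 12 had the lower mean in Con-Pf than in Nic, with none called. Over all probe sets 55.8% had the higher mean in Con-Pf than in Con and 44.1% the higher mean in Con-Pf than in Nic, and the counts of the list were not tested. Among the partners of DARPP-32, the scaffold Ppp1r9b differed between Con-Pf and Con by -0.12 (SE 0.04, adjusted p = 0.112) and the Cdk5 activator Cdk5r1 by -0.09 (SE 0.03, adjusted p = 0.165). These 2 changed little without Con 3 and Con 5, to -0.11 and -0.07. The receptor kinase Grk5 differed by -0.17 (SE 0.08, adjusted p = 0.197), and the arrestin Arrb2, which had the largest difference of all 67, by 0.31 (SE 0.11, adjusted p = 0.121). Without Con 3 and Con 5 these were -0.03 for Grk5 (-0.11 without Con 5 alone) and 0.13 for Arrb2. With all arrays Arrb2 was as far from Con in Nic, at 0.30 (SE 0.12, adjusted p = 0.268), and so was Grk5, at -0.22 (SE 0.08, adjusted p = 0.272). These comparisons share the Con arrays, and without Con 3 and Con 5 they were 0.12 and -0.08. With all arrays Nic differed from Con by -0.09 for Adcy1, -0.10 for Adcy3, -0.05 for Ppp1r9b and -0.01 for Cdk5r1.

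**Figure D5:**
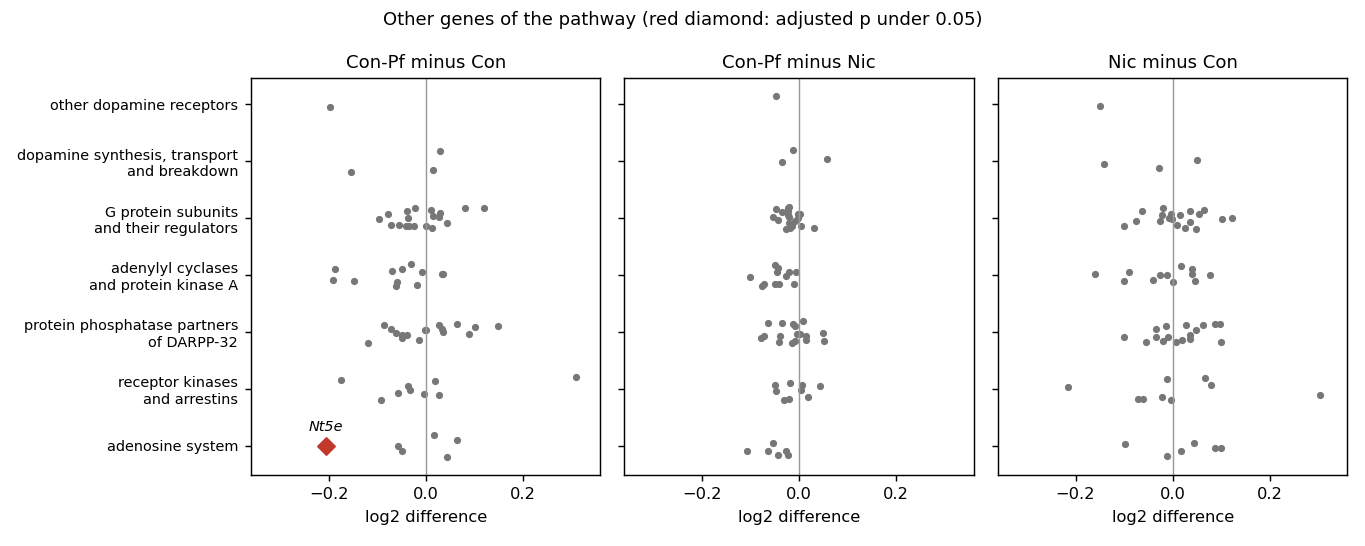
Difference of group means (log2) for the 67 further genes of the pathway that were tested, 1 point for each gene, by list and comparison; the red diamond is the gene with an adjusted p under 0.05. Nt5e, at -0.21 in Con-Pf minus Con, is the only such gene, and in Con-Pf minus Nic all points lie between -0.11 and 0.06.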

How the data were processed

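Striatal RNA of 8 Con, 7 Nic and 10 Con-Pf rats was measured on 25 arrays. The authors summarised and quantile normalised the probe signals with RMA, and the deposited values are log2 levels, 1 per probe set; in their processing notes the submitters list Affymetrix Expression Console 1.1 beside RMA. The authors left out 2 Con arrays and 1 Nic array. Groups follow the sample titles. Con-Pf 9 and Con-Pf 10 carry a Con-Pf title and a description as control; they were kept as Con-Pf, and left out or counted as Con as alternatives. The methods' text on the analysed arrays gives the sizes of Con and Con-Pf the other way round, which is the split with these 2 arrays as Con, while the arrays it says were removed leave the split of the titles. All columns of values were used (0 others). The probe annotation gives 1 symbol for 15310 probe sets, several for 323 and none for 13581, and symbols were updated through RefSeq gene IDs. The signal over background of probes was not analysed here, and the number of arrays limits the precision.

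Probe sets in the upper part of the ranked means (quantile 0.5) were kept (14607 probe sets, 8989 named genes). One linear model over the 3 groups was fitted in R 4.3.3 (limma 3.58.1), and p-values were adjusted with Benjamini-Hochberg over all probe sets kept (threshold 0.05). Correlations and permutation tests used Python 3.11.15, numpy 2.4.6 and scipy 1.17.1. The fits and permutations were tested on simulated data. Alternatives were the methods' t-test (unequal variances) and one with pooled variance, a limma fit to each pair of groups, trend and robust moderation, weighting of arrays, the filter removed or set at quantile 0.75, median centring, quantile normalization repeated, leaving out Con 3 and Con 5, a replicate block and leaving out each array.

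The members and lists were chosen with earlier results of these data known. Named are the 7 genes, the 5 nearest genes of each, the pathway genes called or the 2 of smallest p in any comparison in each list, and the medium spiny neuron markers. The cortical and thalamic markers kept, Slc17a7 and Cck, are named as well. Of the other marker lists only counts and means are given. Over all marker lists, which also cover interneurons, glia and endothelial cells, limma called 0 of 59 genes kept in each comparison, with 9, 4 and 10 (15.3%, 6.78% and 16.9%) under an unadjusted 0.05, against 22.0%, 4.36% and 16.2% of all probe sets.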

Additional observations from a re-analysis of the deposited data

Results flagged for a closer look

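In each gene and group the highest and the lowest array were compared with the next one (21 groups of values, for which chance gives about 1 in 20), and 3 stood apart. Adora2a was lowest on Con 5, at 12.02 against 12.15 on the next Con array, a gap of 0.578 of the range of the group. Con 5 was also the lowest Con array for 5 other genes of the 7 and had the most extreme score on the first principal component. Drd1 was highest on Con 2, at 11.30 against 11.20, a gap of 0.545 of the range, and Con 2 was an array with high choroid plexus markers. Drd2 was lowest on Nic 1, at 12.38 against 12.51, a gap of 0.667 of the range. The part of these array properties in the values was not tested.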

How the results depend on the processing

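None of the 6 genes kept was called in any comparison under any of the alternatives, and Drd3 was tested only without the filter, where it was not called. Of 702 recomputed differences of the 6 genes kept, 662 kept their direction and 40 turned, all of them uncalled and at most 0.03 in size; the smallest adjusted p was 0.0963, for Adcy5. In Con-Pf against Con the turned values were, with array weights, -0.023 for Drd2 and -0.0098 for Adora2a; after a further quantile normalization, -0.0019 for Drd2 and -0.026 for Adora2a; after median centring, -0.0036 for Adora2a; without Con-Pf 9 and Con-Pf 10, 0.0089 for Gnal; with these counted as Con, 0.023 for Gnal; and without Con 3 and Con 5, -0.0097 for Drd2, -0.014 for Ppp1r1b and -0.020 for Adora2a. In Con-Pf against Nic they were 0.0082 for Ppp1r1b after a further quantile normalization, and 0.00043 for Drd2 and 0.00089 for Ppp1r1b both without Con-Pf 9 and Con-Pf 10 and with these counted as Con. In Nic against Con they were -0.00056 for Drd2 with array weights, -0.0096 for Gnal after a further quantile normalization, 0.0061 for Drd1 with Con-Pf 9 and Con-Pf 10 counted as Con and -0.011 for Ppp1r1b without Con 3 and Con 5. The cause was not tested.

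Leaving out 1 array at a time gave turned values in Con-Pf against Con for Drd2 (-0.00089 to 0.044), Gnal (-0.026 to 0.0030) and Adora2a (-0.015 to 0.022), in Con-Pf against Nic for Drd2 (-0.035 to 0.00051) and Ppp1r1b (-0.021 to 0.0066), and in Nic against Con for Drd1 (-0.034 to 0.0088).

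The 1 pathway gene called in Con-Pf against Con, Nt5e, became 0 with either t-test, limma on the compared groups only, trend and robust moderation, no filter, the stricter filter (which leaves Nt5e out), median centring, without or with a changed group for Con-Pf 9 and Con-Pf 10, without Con 3 and Con 5 and with the replicate block; leaving out 1 array gave 0 to 1. The 6 correlated pairs became 3 without Con 5, Con-Pf 1 and Con-Pf 9, a setting added after seeing the data, and 4 to 7 on leaving out 1 array. A further quantile normalization also gave 6 pairs, 5 of them the same.

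Same-numbered arrays of 2 groups correlated above 0.1 in 4 of 8, 4 of 7 and 2 of 7 pairs, and an array correlated best with its own number in 1, 3 and 1 of them. No level to be expected without pairing was computed, so these counts cannot decide whether the numbers pair the animals. With a replicate block over replicates 1 to 7, none of the 6 genes kept was called and the pathway calls were 0, 0 and 0, against 1, 0 and 0 for the same arrays without the block; Gnal in Con-Pf against Con was 0.015 and Ppp1r1b in Con-Pf against Nic 0.0042 in both fits. Each gene rests on 1 probe set, Drd3 lies just below the filter, and 25 arrays limit what can be seen to the intervals given.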
